A study of Mus musculus with 18 samples.

Results

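Genes of the AP-1 transcription factor and the immediate early response were followed in NIH-3T3 cells, an established line of mouse fibroblasts, after inhibition of the proteasome. The 10 genes were chosen by name, as the Fos family (Fos, Fosb, Fosl1 and Fosl2), the Jun family (Jun, Junb and Jund) and 3 other early genes (Egr1, Ier2 and Ier3). Earlier results of these data were known at the choice, so counts and medians set beside those of all genes are descriptions and carry no test. All 10 were found among the 23420 genes in the count table, and all 10 were among the 11762 genes with enough reads to be tested. RNA from 18 cultures was sequenced, 3 biological replicates in each of 6 groups. The wild-type (WT) cells and the Nrf1-knockout cells (Nrf1-KO, made with CRISPR/Cas9) each had a DMSO vehicle group, a group given 200 nM carfilzomib (CFZ) for 6 h and a group given 200 nM CFZ for 24 h. CFZ blocks the proteasome, and Nrf1, encoded by Nfe2l1, is the factor that raises proteasome genes when the proteasome is blocked. No time is given for DMSO, so one DMSO group per line stands against both CFZ times, and effects of CFZ and of time in culture cannot be told apart. The knockout is a single cell line, so the loss of Nrf1 and other differences between the 2 lines cannot be told apart either.

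Total counts ranged from 8333148 to 23917081 per library, with a median of 14419832, and each of the 18 libraries was most like the other libraries of its own group. Nfe2l1 stood at 437.3 to 456.9 CPM (counts scaled to library size by TMM) in WT cells in DMSO and at 174.3 to 184.6 CPM in Nrf1-KO cells, a difference of -1.31 ± 0.034 (log2, SE) that the edgeR test called with an adjusted p = 1.6e-24. The difference was -0.62 ± 0.033 at 6 h of CFZ, when Nfe2l1 had risen to 413.5 to 427 CPM in Nrf1-KO cells and 627.7 to 650.4 CPM in WT cells, and -1.47 ± 0.034 at 24 h. All Nrf1-KO libraries were below all WT libraries, although the row counts the whole gene and does not show the edited part. Fibroblast markers were high, with a summed level of 8224 to 35891 CPM over 9 genes, whereas the summed epithelial markers reached 13 CPM at most (Epcam and Krt18 at 0), leukocyte markers 5.77 CPM (Cd3e at 0) and endothelial markers 3.83 CPM. At 24 h of CFZ 9 of the 9 fibroblast markers were lower than in DMSO in WT cells (median log2 fold change -2.52), and 7 of 9 were lower in Nrf1-KO cells (median -1.99). Of all genes tested 40.5% and 41.1% were lower. In Nrf1-KO cells Pdgfra was higher (0.10) and Vim was not called (0.02), against -0.68 and -1.26 in WT cells. The summed level of the 9 markers went from 33024 to 35891 CPM in DMSO to 8224 to 8510 CPM at 24 h in WT cells, and from 27615 to 33906 CPM to 11077 to 13148 CPM in Nrf1-KO cells. The scarce markers of other cell types also moved. At 24 h in WT and Nrf1-KO cells the epithelial Cdh1 was at -3.54 and -4.87, the leukocyte Cd68 at 2.26 and 2.55 and the endothelial Cdh5 at 3.67 and 4.22 (log2, all called), while the leukocyte Ptprc had 0 counts in WT cells and a mean of 0.981 CPM in Nrf1-KO cells in DMSO. In these bulk samples fewer cells of a type and less RNA per cell cannot be told apart, and the part of these shifts in the results that follow was not tested.

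AP-1 is a dimer of 1 Jun and 1 Fos protein, or of 2 Jun proteins, that binds a short DNA element in genes of growth, invasion and stress. Immediate early genes such as Fos, Jun and Egr1 are switched on by signalling kinases without new protein synthesis, and their mRNAs are usually short-lived, in part because of AU-rich elements in the 3' untranslated region (3' UTR). Cells under proteotoxic stress are known to activate the kinase JNK, which phosphorylates Jun, and AP-1 proteins are themselves substrates of the proteasome. The counts analysed here measure mRNA only.

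To show the letters that could be read for these genes, short windows of their 3' UTRs are printed first, on the gene's strand of GRCm38. Capitals mark ATTTA for Ier3 and Jun and the longer TTATTTATT for Fos, where an overlapping ATTTA begins in lower case. The 3 genes were taken because Fos has the longer element, Ier3 has the most copies per length and Jun is the Jun-family member with the highest treated level. The Fos window lies at chr12:85477103-85477131 on the plus strand, the Ier3 window at chr17:35822476-35822505 on the plus strand and the Jun window at chr4:95049210-95049239 on the minus strand.
Fos: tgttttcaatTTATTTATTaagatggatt
Ier3: ctccgtgtctaattaatATTTAtgtATTTA
Jun: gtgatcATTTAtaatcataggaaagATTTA
In the GENCODE annotation 9 of the 10 genes held ATTTA in the 3' UTR, against 65.2% of 21037 genes, and Ier2 was the exception. Ier3 had 5 copies in 613 bases, or 8.16 per kb, where the median over genes was 1.35 per kb. Fos and Junb followed with 4.91 and 4.12 per kb. The longer TTATTTATT occurred in Fos and Fosl2, against 7.65% of genes.

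Bases before the start sites were read from RefSeq (GRCm38.p6), which held 7 of the 10 genes and had no entry used here for Fosl1, Egr1 and Ier2. The windows of Jun, Fos and Ier3 are shown because these genes had the 3 kinds of motif match that were found, and motif matches are in capitals. They lie at chr4:95052223-95052472 on the minus strand for Jun, chr12:85473640-85473889 on the plus strand for Fos and chr17:35821463-35821683 on the plus strand for Ier3, where bases that GENCODE places inside the gene were left out.
Jun: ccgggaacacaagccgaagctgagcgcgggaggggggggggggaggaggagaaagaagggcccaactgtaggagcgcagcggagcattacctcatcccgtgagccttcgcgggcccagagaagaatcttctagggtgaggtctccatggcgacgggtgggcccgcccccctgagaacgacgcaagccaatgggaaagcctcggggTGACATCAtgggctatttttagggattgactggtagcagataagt
Fos: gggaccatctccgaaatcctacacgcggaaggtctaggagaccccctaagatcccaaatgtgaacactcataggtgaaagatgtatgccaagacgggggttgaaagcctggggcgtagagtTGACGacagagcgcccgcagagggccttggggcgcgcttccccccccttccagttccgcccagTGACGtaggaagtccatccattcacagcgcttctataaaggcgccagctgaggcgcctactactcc
Ier3: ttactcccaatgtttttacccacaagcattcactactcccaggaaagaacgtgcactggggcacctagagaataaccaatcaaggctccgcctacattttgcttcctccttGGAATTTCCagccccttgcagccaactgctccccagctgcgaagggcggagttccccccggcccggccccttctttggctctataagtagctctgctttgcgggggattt
Motifs were searched on both strands in 250 bases before each RefSeq start, and positions are counted back from that start. TGACATCA, the variant AP-1 site known from the Jun promoter, matched at -45 to -38 in Jun and was present in 2.93% of 32851 RefSeq windows. TGACG, the core of the cyclic AMP response element, matched at -129 to -125 and -66 to -62 in Fos, and also in Fosb and Junb, against 17.8% of windows. GGAATTTCC, an NF-kB site, matched at -139 to -131 in Ier3 against 0.286% of windows. The AP-1 site TGANTCA (6.75% of windows), the full element TGACGTCA (1.55%, which contains TGACG), the antioxidant-type element TGACNNNGC (10.2%), the ATF composite TGATGNAA (3.45%) and the CArG box (1.47%) matched none of the 7 windows. A match is a string of letters and not a measured site. Bases further out than these windows, and the promoters of Fosl1, Egr1 and Ier2, were not searched. The RefSeq window of Jund, chr8:70697489-70697738, lies apart from the GENCODE start of that gene at 70698949.

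CFZ for 6 h raised most of the early genes in both lines. In WT cells 7 of the 10 genes were higher than in DMSO and 1, Jund, was lower, when 35.6% of all genes tested were called higher and 36.2% lower at an adjusted p of 0.05 by edgeR's quasi-likelihood test. In Nrf1-KO cells 8 were higher and Jund was again lower, against 34.5% and 35.0% of all genes. A change of at least 2-fold upward was reached by Fosl1, Jun, Junb and Ier3 in WT cells, 4 of 10 against 3.98% of all genes, and by these 4 and Ier2 in Nrf1-KO cells, 5 of 10 against 3.30%. No member fell by 2-fold at 6 h, as 5.65% of all genes did in WT and 4.26% in Nrf1-KO cells. The median log2 fold change of the 10 genes was 0.79 in WT and 1.09 in Nrf1-KO cells, where the medians of all genes were -0.02 and -0.01.

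At 24 h Fos, Jund and Ier2 lay on opposite sides of DMSO in the 2 lines. In WT cells 6 of 10 genes were higher than in DMSO and 4 were lower (Fos, Jund, Egr1 and Ier2), against 43.2% and 40.5% of all genes. In Nrf1-KO cells 9 were higher and only Egr1 was lower, against 44.4% and 41.1%. At 2-fold or more 3 genes were higher (Fosl1, Jun and Ier3) and 2 lower (Fos and Egr1) in WT cells, with 10.5% and 14.5% of all genes, and 5 were higher (Fos, Fosl1, Jun, Junb and Ier3) and 0 lower in Nrf1-KO cells, with 11.5% and 15.2%. The medians of the 10 genes were 0.57 in WT and 1.0 in Nrf1-KO cells, beside 0.02 and 0.03 over all genes. From 6 h to 24 h of CFZ 7 genes fell and 3 rose in WT cells (36.9% of all genes higher, 35.4% lower), and 5 fell and 3 rose in Nrf1-KO cells (38.7% higher, 38.3% lower). Fosb, Jund and Ier3 were the 3 that rose in each line. Comparisons of one line share its DMSO or 6 h libraries and are not independent of each other. The 10 genes together took 0.0399% to 0.0409% of counts in WT cells in DMSO, 0.088% to 0.0938% at 6 h and 0.0915% to 0.0933% at 24 h. In Nrf1-KO cells these shares were 0.0398% to 0.0428%, 0.0948% to 0.0961% and 0.145% to 0.153%. Ier3 took a large part of the sum at 24 h, at mean levels of 361.1 CPM in WT and 902.7 CPM in Nrf1-KO cells. At 6 h its means were 80.53 and 114.5 CPM, so the sums do not give the course of the other genes.

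**Figure D1:**
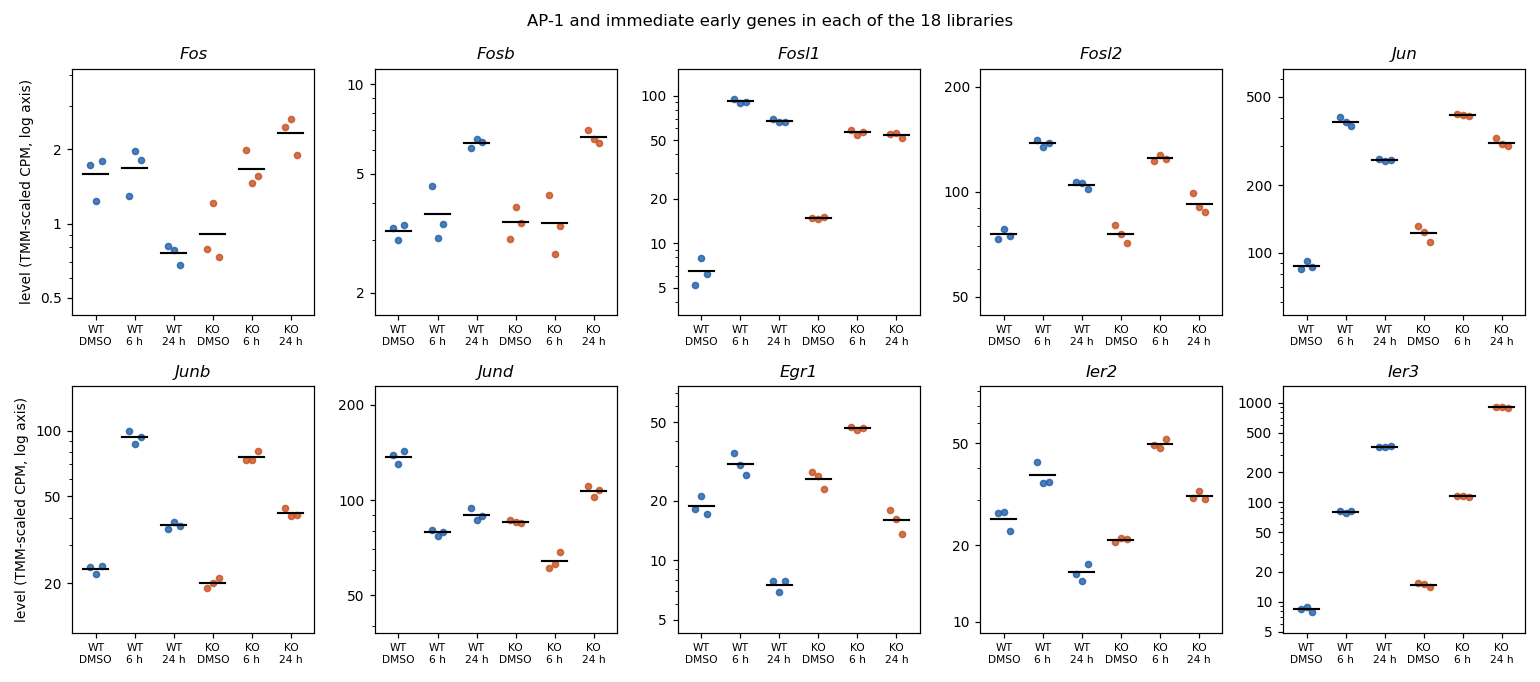
Level of each of the 10 genes (TMM-scaled CPM, log axis, a separate scale per gene) in the 18 libraries, with WT in blue, Nrf1-KO (KO) in orange, points for replicates and a black line for the mean of 3. Ier3 climbs in every step to 889.4 to 912.3 CPM in Nrf1-KO cells at 24 h, and the WT 24 h libraries are the lowest for Egr1 and Ier2.

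Jun (chr4:95049034-95052222, minus strand, 1 exon, GENCODE on GRCm38 here and below) is the Jun-family member with strong transactivating ability. It was among the genes that CFZ raised at least 2-fold at 6 h in both lines. Its level was 84.09, 91.64 and 85.92 CPM in the 3 WT libraries in DMSO, 407.4, 385.6 and 368.7 CPM at 6 h and 262.5, 257.9 and 261.2 CPM at 24 h. In Nrf1-KO cells it was 132.2, 123.5 and 111.9 CPM in DMSO, 418.6, 415.7 and 412.1 CPM at 6 h and 327.5, 307.4 and 299.9 CPM at 24 h. None of the 6 groups overlapped, and in both lines the level was highest at 6 h. The change at 6 h was 4.44-fold in WT cells (log2 2.15 ± 0.048, SE, edgeR adjusted p = 3.9e-27) and 3.41-fold in Nrf1-KO cells (log2 1.77 ± 0.046, edgeR adjusted p = 4.4e-25). At 24 h Jun was still 2.99-fold and 2.55-fold above DMSO. The knockout started 1.4-fold higher in DMSO (log2 0.48 ± 0.049), and the interaction, the log2 response of Nrf1-KO minus that of WT, was -0.38 ± 0.066 at 6 h (edgeR adjusted p = 2.1e-05) and -0.23 ± 0.066 at 24 h (adjusted p = 0.004). At 6 h the lines differed by 0.10 ± 0.043 (adjusted p = 0.042 by edgeR), a call that was lost when any of 5 of the 6 libraries was left out, with adjusted p from 0.063 to 0.3. Of the exonic bases of Jun, 7.28% overlap Junos on the opposite strand in GENCODE, and the count table has no row of that name.

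Junb (chr8:84974484-84978718, minus strand), a Jun relative that often restrains Jun in growth control, had a sharper pulse. It was at 22.08 to 24 CPM in WT DMSO libraries, 86.94 to 99.65 CPM at 6 h and 35.48 to 38.25 CPM at 24 h. The Nrf1-KO libraries held 18.98 to 21.21 CPM, then 73.59 to 80.93 CPM and 40.66 to 44.44 CPM. Groups again did not overlap. Junb rose 4.01-fold in WT and 3.74-fold in Nrf1-KO cells at 6 h, then changed by -1.33 ± 0.054 and -0.85 ± 0.054 on the log2 scale between 6 h and 24 h. What remained at 24 h was 1.59-fold over DMSO in WT and 2.07-fold in Nrf1-KO cells, and this difference in response was 0.38 ± 0.091 (log2, edgeR adjusted p = 0.00056). At 6 h the interaction of -0.10 ± 0.085 was not called (adjusted p = 0.38 by edgeR). In DMSO Junb was lower in Nrf1-KO cells by -0.20 ± 0.069 (log2), a call lost under library size alone (-0.15, adjusted p = 0.059 by edgeR), without WT DMSO replicate 1 (adjusted p = 0.079) and without Nrf1-KO DMSO replicate 1 (adjusted p = 0.057). Of the exonic bases of Junb, 7.52% overlap Prdx2 on the opposite strand in GENCODE. Prdx2 had group means from 115 to 230 CPM, and the part of shared reads in the Junb values was not tested.

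Jund (chr8:70698949-70700616, plus strand, 1 exon), the Jun relative that resting fibroblasts express steadily, went the other way. The WT libraries held 138.4, 130.1 and 142.7 CPM in DMSO, 80.76, 77.11 and 79.23 CPM at 6 h and 94.54, 86.46 and 89.13 CPM at 24 h. The Nrf1-KO libraries held 86.28, 85.55 and 84.86 CPM in DMSO, 61.05, 62.86 and 68.58 CPM at 6 h and 110.8, 102.2 and 107.6 CPM at 24 h. All WT libraries after CFZ were below all in DMSO, whereas all Nrf1-KO libraries at 24 h were above theirs. At 6 h Jund changed by -0.79 ± 0.043 in WT and -0.42 ± 0.047 in Nrf1-KO cells (log2), with edgeR adjusted p-values of 7.6e-17 and 2.5e-09. At 24 h it was at -0.61 ± 0.042 in WT cells and 0.32 ± 0.042 in Nrf1-KO cells, opposite sides of DMSO, and the interaction was 0.93 ± 0.06 (edgeR adjusted p = 1.4e-14). In DMSO the knockout line already stood lower by -0.68 ± 0.041 (log2), so the smaller fall started from a lower level. In GENCODE 52.6% of the exonic bases of Jund overlap Gm11175 on the opposite strand. The count table has no row named Gm11175, and whether the authors counted by strand is not given in the sources used here.

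Per length of transcript, these changes turned the make-up of the Jun family around. Jund made up 68.7 ± 1.4% (SD, n = 3) of the summed Jun, Junb and Jund CPM per kb in WT cells in DMSO, 22.6 ± 0.63% at 6 h and 35.6 ± 1% at 24 h. Jun went from 22.9 ± 1.6% to 58 ± 1.1% and 53.9 ± 0.48%. The Nrf1-KO cells started from a more even mix, 52.1 ± 1.2% Jund and 39 ± 2% Jun, moved to 19.1 ± 0.87% and 64.6 ± 1.5% at 6 h, and at 24 h held 35.6 ± 0.87% Jund and 54.3 ± 0.85% Jun. Shares at 24 h therefore lay within 1 percentage point of each other in the 2 lines. The family sum was 120 ± 3.3, 209 ± 8.8 and 152 ± 2.5 CPM per kb in WT cells and 98.4 ± 3.1, 202 ± 3.2 and 180 ± 7.3 CPM per kb in Nrf1-KO cells. These shares use GENCODE exonic lengths, which need not be the transcripts these cells made.

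**Figure D2:**
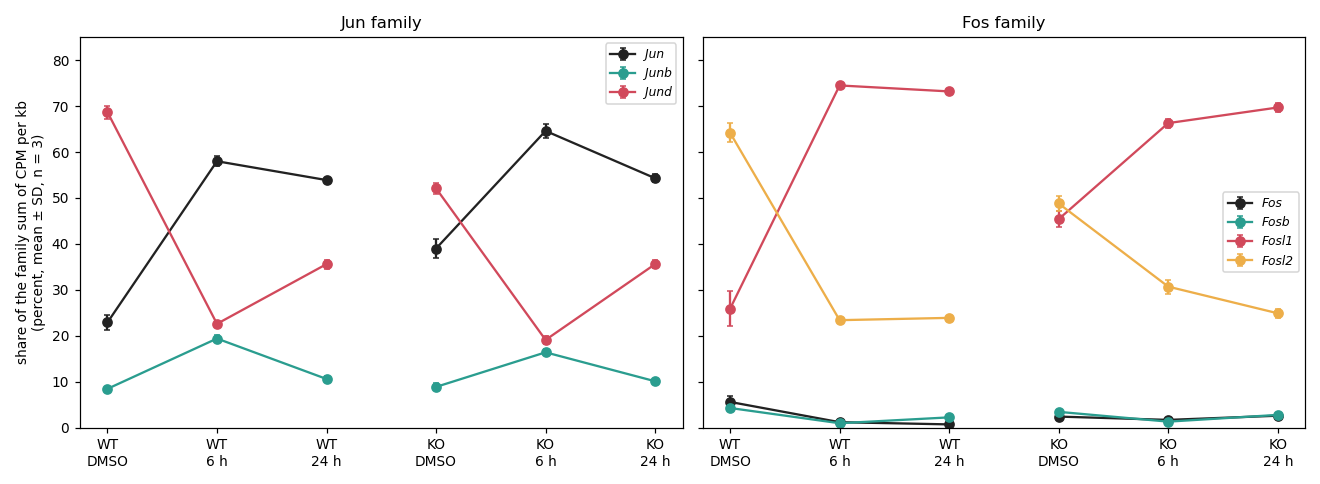
Share of each gene in the sum of its family's CPM per kb (percent, mean ± SD of 3 libraries), for the Jun family at left and the Fos family at right, in WT and Nrf1-KO (KO) cells by treatment. Jund falls from 68.7% to 22.6% and Fosl1 climbs from 25.9% to 74.5% in WT cells in the first 6 h, and Nrf1-KO cells start from a more even mix.

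Fosl1 (chr19:5447547-5455946, plus strand) encodes Fra-1, a Fos protein without the transactivation domain of Fos that is prominent in migrating and transformed cells, and it gave the largest change of the 10 genes at 6 h in WT cells. Its level there was 5.224, 7.913 and 6.165 CPM in DMSO, 95.55, 89.42 and 91.28 CPM at 6 h and 69.74, 66.62 and 66.01 CPM at 24 h. Nrf1-KO libraries held 14.84, 14.51 and 15.04 CPM in DMSO, 58.92, 53.98 and 56.83 CPM at 6 h and 55.42, 55.86 and 51.31 CPM at 24 h. The knockout therefore started above WT and ended below it, with no overlap at any of the 3 conditions. The rise at 6 h was 14.4-fold in WT (log2 3.85 ± 0.073, edgeR adjusted p = 8.1e-29) and 3.81-fold in Nrf1-KO cells (log2 1.93 ± 0.068, edgeR adjusted p = 1.2e-21). At 24 h it was 10.5-fold and 3.65-fold. The interaction was -1.92 ± 0.11 at 6 h (edgeR adjusted p = 4.2e-15) and -1.53 ± 0.11 at 24 h (adjusted p = 3.4e-13). Of this, 1.22 ± 0.098 came with the higher DMSO level of the knockout and the rest with its lower level under CFZ, -0.70 ± 0.053 at 6 h and -0.31 ± 0.053 at 24 h.

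In GENCODE 57.2% of the exonic bases of Fosl1 overlap Ccdc85b, a gene on the opposite strand, and without knowledge of strand in the counting the reads of the pair could be mixed. Ccdc85b fell under CFZ, at -0.60 and -1.51 on the log2 scale in WT cells at 6 h and 24 h and -0.82 and -2.16 in Nrf1-KO cells, the opposite of Fosl1. Its mean level was 36.7 CPM in WT and 39.8 CPM in Nrf1-KO cells in DMSO, above that of Fosl1, and the part of shared reads in the Fosl1 values was not tested.

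Fosl2 (chr5:32135801-32157842, plus strand), which encodes Fra-2, was the most abundant Fos-family mRNA per length in DMSO. Its CPM ran from 73.23 to 78.36 in WT DMSO libraries, 133.9 to 140.7 at 6 h and 101.8 to 106.7 at 24 h, and in Nrf1-KO cells from 71.14 to 80.31, 122.7 to 127.4 and 87.46 to 98.94. The groups under CFZ did not overlap with DMSO, while the DMSO groups of the lines did overlap. The change at 6 h was 1.82-fold in WT and 1.66-fold in Nrf1-KO cells. At 24 h it was 1.39-fold and 1.22-fold, with an interaction of -0.18 ± 0.064 (log2, edgeR adjusted p = 0.015) that was lost without Nrf1-KO DMSO replicate 1 (adjusted p = 0.065 by edgeR). At 6 h the interaction was -0.14 ± 0.064 and not called (adjusted p = 0.085 by edgeR), although it was called with no expression filter (-0.16), without WT 6 h replicate 2 (-0.18) and without Nrf1-KO DMSO replicate 3 (-0.19). Between the lines Fosl2 differed by 0.00 ± 0.046 in DMSO, by -0.14 ± 0.044 at 6 h and by -0.18 ± 0.045 at 24 h. The 6 h difference was not called under upper-quartile scaling (-0.09, adjusted p = 0.065 by edgeR) or library size alone (-0.07, adjusted p = 0.16).

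Fosb (chr7:19302696-19310051, minus strand), another Fos-family gene, was called against DMSO at 24 h only, in both lines. WT libraries had 3.011 to 3.381 CPM in DMSO, 3.058 to 4.55 CPM at 6 h and 6.099 to 6.536 CPM at 24 h. Nrf1-KO libraries had 3.021 to 3.883 CPM, 2.703 to 4.256 CPM and 6.342 to 7.042 CPM. The 6 h libraries overlapped with DMSO, and the 24 h libraries were above all others. Its log2 change at 6 h was 0.18 ± 0.17 in WT and 0.01 ± 0.17 in Nrf1-KO cells, neither called (edgeR adjusted p of 0.33 and 0.97). At 24 h it was 0.98 ± 0.14 and 0.94 ± 0.13 (edgeR adjusted p = 2.2e-07 and 1.1e-07). Fosb was the 1 member that was called in neither interaction, with -0.17 ± 0.24 at 6 h and -0.04 ± 0.2 at 24 h.

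Fos (chr12:85473890-85477273, plus strand), the founding member of the family and the best known transient early gene, was scarce. The 3 libraries of a group held 34, 21 and 27 reads in WT DMSO, 17, 27 and 24 at 6 h and 8, 13 and 11 at 24 h, and in Nrf1-KO cells 12, 19 and 19 in DMSO, 27, 19 and 13 at 6 h and 35, 48 and 30 at 24 h. In CPM the means were 1.585 ± 0.3, 1.688 ± 0.354 and 0.7582 ± 0.0683 (SD, n = 3) in WT cells and 0.91 ± 0.261, 1.669 ± 0.274 and 2.343 ± 0.394 in Nrf1-KO cells. The WT libraries at 24 h and the Nrf1-KO libraries in DMSO were the lowest, and neighbouring groups overlapped except between the Nrf1-KO and WT DMSO groups. In WT cells Fos was at 0.09 ± 0.23 at 6 h (log2, adjusted p = 0.73 by edgeR) and changed by -1.07 ± 0.28 at 24 h (edgeR adjusted p = 0.00081). In Nrf1-KO cells it rose by 0.93 ± 0.27 at 6 h (edgeR adjusted p = 0.0028) and by 1.41 ± 0.23 at 24 h (adjusted p = 1.3e-06). The interaction at 24 h, 2.48 ± 0.36 (edgeR adjusted p = 5.5e-07), was the largest in size of the 10 genes, and the value at 6 h, 0.84 ± 0.35, missed the threshold (adjusted p = 0.06 by edgeR), which it passed under upper-quartile scaling (0.88), without WT DMSO replicate 2 (0.99) or without Nrf1-KO DMSO replicate 2 (1.06). In DMSO Fos was lower in Nrf1-KO cells by -0.84 ± 0.25, a call lost without Nrf1-KO DMSO replicate 3 (-0.66, adjusted p = 0.059 by edgeR). At 24 h it was 3.11-fold higher in Nrf1-KO than in WT cells.

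Within the Fos family Fosl1 took over from Fosl2 when levels were divided by GENCODE exonic length, 2.033 kb for Fosl1 and 9.68 kb for Fosl2. In CPM without this division Fosl2 stayed above Fosl1 in all 6 groups, as at 6 h in WT cells (means of 137.5 and 92.08 CPM). The lengths need not be those of the transcripts these cells made, and the overlap of Fosl1 with Ccdc85b applies to these shares too. In WT cells in DMSO Fosl2 made up 64.2 ± 2.1% (SD, n = 3) of the summed CPM per kb and Fosl1 25.9 ± 3.8%. At 6 h they made up 23.4 ± 0.21% and 74.5 ± 0.29%, and at 24 h 23.9 ± 0.32% and 73.2 ± 0.42%. The Nrf1-KO cells had 48.8 ± 1.7% Fosl2 and 45.4 ± 1.7% Fosl1 in DMSO, then 30.7 ± 1.5% and 66.3 ± 1% at 6 h and 24.9 ± 0.93% and 69.7 ± 0.89% at 24 h. The highest group means of Fos and Fosb were 5.6 ± 1.3% and 4.28 ± 0.5%, both in WT cells in DMSO. The family sum went from 12.2 ± 0.8 to 60.8 ± 1.9 and 45.3 ± 1.2 CPM per kb in WT cells and from 16 ± 0.41 to 42 ± 1.2 and 38.2 ± 1.9 CPM per kb in Nrf1-KO cells.

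Egr1 (chromosome 18, plus strand), a zinc finger factor induced by the same signals as Fos, rose at 6 h and then dropped below its DMSO level. Per library it was at 18.11, 21.14 and 17.1 CPM in WT DMSO, 34.96, 30.36 and 26.96 CPM at 6 h and 7.828, 6.895 and 7.871 CPM at 24 h. The Nrf1-KO libraries were at 28.04, 26.61 and 22.86 CPM, 47.25, 45.79 and 46.64 CPM and 18.03, 16.2 and 13.64 CPM. At each condition all Nrf1-KO libraries were above all WT libraries. The rise at 6 h was 1.64-fold in WT and 1.83-fold in Nrf1-KO cells, and the interaction of 0.16 ± 0.12 was not called (adjusted p = 0.31 by edgeR). Between 6 h and 24 h Egr1 fell 4.11-fold and 2.93-fold. It ended at -1.33 ± 0.12 and -0.68 ± 0.093 against DMSO (log2), and the responses differed by 0.65 ± 0.16 at 24 h (edgeR adjusted p = 0.00069).

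Ier2 (chr8:84661331-84662852, minus strand), a nuclear protein induced early by growth factors, rose at 6 h in both lines and ended on opposite sides of DMSO. WT libraries held 26.63, 26.87 and 22.74 CPM in DMSO, 42.39, 35.1 and 35.47 CPM at 6 h and 15.45, 14.51 and 16.92 CPM at 24 h. Nrf1-KO libraries held 20.49, 21.26 and 21.21 CPM, 49.23, 48.11 and 52.28 CPM and 30.49, 32.51 and 30.32 CPM. All 24 h libraries were below DMSO in WT cells and above DMSO in Nrf1-KO cells. The log2 changes at 6 h were 0.56 ± 0.069 and 1.24 ± 0.068, and at 24 h -0.71 ± 0.081 and 0.57 ± 0.07. The interaction was 0.68 ± 0.097 at 6 h (edgeR adjusted p = 1.1e-06) and 1.28 ± 0.11 at 24 h (adjusted p = 8.6e-12). The knockout was lower in DMSO, at -0.28 ± 0.072, and higher at 6 h and 24 h, at 0.40 ± 0.065 and 0.99 ± 0.079 (log2).

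Ier3 (chr17:35821684-35822923, plus strand), also named IEX-1, is an early stress gene with roles in survival and NF-kB signalling, and its change was the largest at 24 h of the 10 genes. WT libraries held 8.52, 8.798 and 7.823 CPM in DMSO, 82.13, 78.21 and 81.26 CPM at 6 h and 356.1, 358.3 and 368.8 CPM at 24 h. Nrf1-KO libraries held 15.3, 14.96 and 14.19 CPM, 115.6, 114.4 and 113.5 CPM and 906.5, 912.3 and 889.4 CPM. Ier3 was alone in rising at least 2-fold again from 6 h to 24 h in each line, by 4.49-fold in WT and 7.88-fold in Nrf1-KO cells. The rise over DMSO at 24 h was 42.9-fold in WT (log2 5.42 ± 0.047, edgeR adjusted p = 1.1e-37) and 61.3-fold in Nrf1-KO cells (log2 5.94 ± 0.042, adjusted p = 2.1e-40). The knockout was above WT in every condition, by 0.81 ± 0.07 in DMSO, 0.51 ± 0.038 at 6 h and 1.32 ± 0.03 at 24 h (log2). Its interaction changed sign between the times, from -0.30 ± 0.08 at 6 h (edgeR adjusted p = 0.0049) to 0.51 ± 0.078 at 24 h (adjusted p = 1.2e-06).

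**Figure D3:**
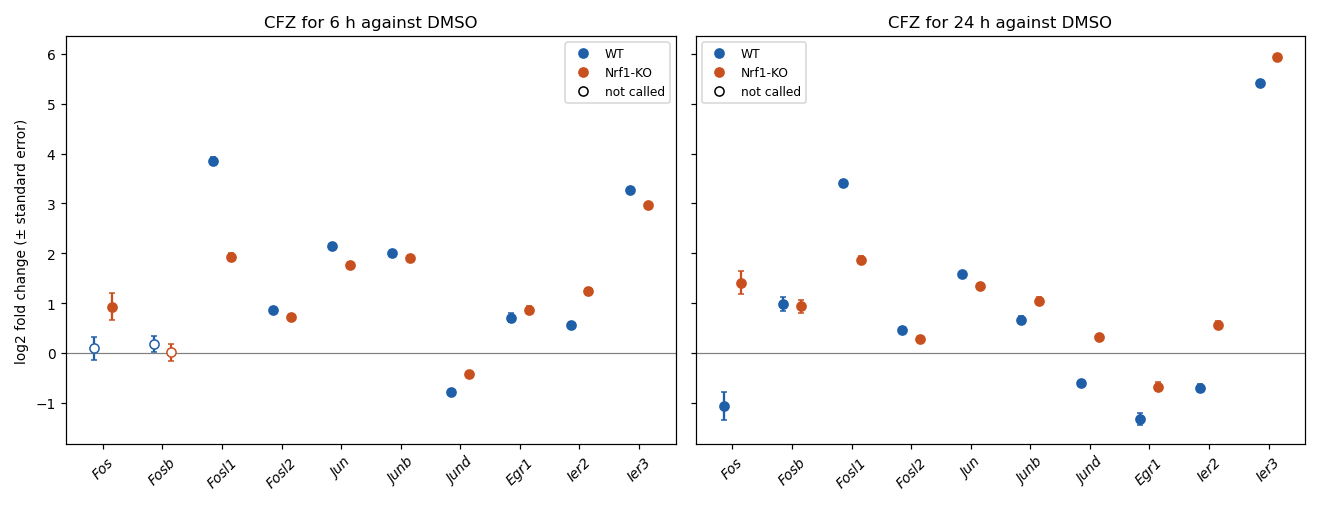
Log2 fold change of CFZ against DMSO (points, with bars for the standard error of the edgeR fit) for the 10 genes at 6 h and 24 h, WT in blue and Nrf1-KO in orange, open where not called. At 24 h Fos, Jund and Ier2 lie below 0 in WT cells and above 0 in Nrf1-KO cells, and Fosl1 is lower in the knockout at both times.

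Whether the 2 lines responded differently to CFZ was put to the interaction of line and treatment. It cannot tell the loss of Nrf1 from other differences between the lines. At 6 h 5 of the 10 genes were called, 2 with a higher response in Nrf1-KO cells (Jund and Ier2) and 3 with a lower one (Fosl1, Jun and Ier3), against 19.8% and 18.4% of all genes tested. At 24 h 9 were called, 6 higher (Fos, Junb, Jund, Egr1, Ier2 and Ier3) and 3 lower (Fosl1, Fosl2 and Jun), against 29.7% and 30.0%. The median interaction of the 10 genes was -0.12 at 6 h and 0.45 at 24 h, and that of all genes was 0.02 and 0.00. Lower responses at 24 h belonged to Jun and the 2 Fra genes, and higher responses to Fos, the 2 other Jun genes and the 3 early genes outside AP-1. In direct comparisons of the lines in DMSO, the level of 4 of the 10 genes was higher in the knockout and that of 4 was lower (25.7% and 29.1% of all genes), 4 were higher and 4 lower at 6 h (30.5% and 30.8%), and 7 were higher and 2 lower at 24 h (35.6% and 36.4%). These comparisons share libraries with the interactions.

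**Figure D4:**
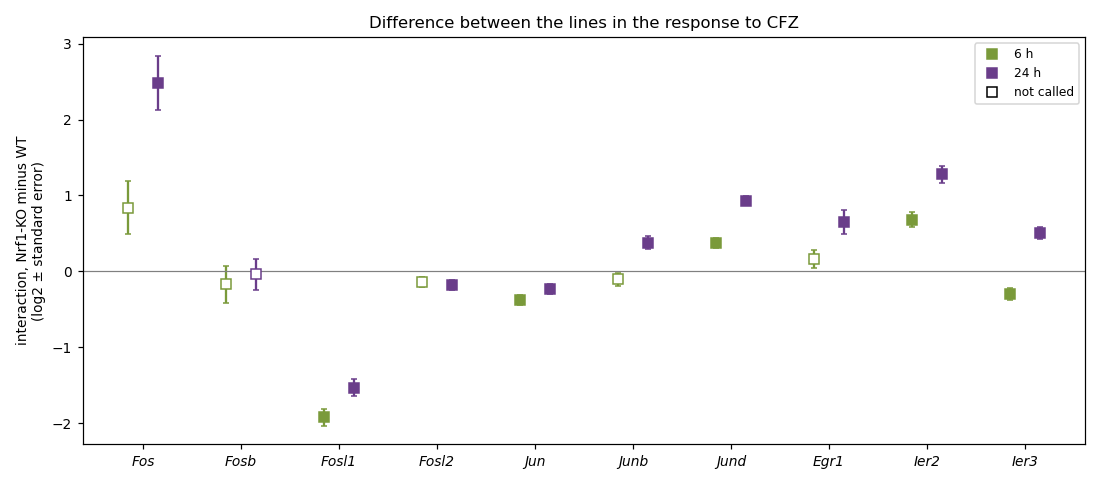
Interaction of line and CFZ (log2 response of Nrf1-KO minus that of WT, with the standard error of the edgeR fit) for the 10 genes at 6 h in green and 24 h in purple, open where not called. Fos at 24 h is highest at 2.48, Fosl1 lowest at -1.92 at 6 h and -1.53 at 24 h, and Ier3 crosses 0 between the times.

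Over the 18 libraries, which share the 6 groups, the log2 levels of Jun, Junb, Fosl1 and Fosl2 went together. Pearson's r was 0.96 for Fosl2 with Junb, 0.95 for Fosl1 with Jun, 0.90 for Jun with Junb, 0.89 for Fosl2 with Jun, 0.85 for Fosl1 with Fosl2 and 0.81 for Fosl1 with Junb. It was 0.83 for Egr1 with Ier2, and Jund ran against Jun and Fosl2 with r of -0.70 each. Fos was most like Ier2, with r of 0.67. Among 10251 other genes with a mean of at least 50 counts, the closest patterns were those of Zfp655 and 2410131K14Rik for Ier3 (r of 0.997 and 0.996), Larp4 and Rtn4 for Fosl1 (0.987 and 0.975), Trmt61a and Ahsa1 for Jun (0.985 and 0.981) and Gpr176 and Tsc22d3 for Ier2 (0.985 and 0.965). For Junb they were Xpo7 and Ptpn2 (both 0.983), for Egr1 Ept1 and Scaf11 (0.983 and 0.977), for Fosl2 Nfkbia and Rab33b (0.976 and 0.975), for Fosb Arhgap26 and Aagab (0.95 and 0.948), for Jund Pdcd4 and Tenm4 (0.943 and 0.93) and for Fos Ezh2 and Apaf1 (0.874 and 0.86). These values describe libraries in groups and carry no test.

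Genes related to the 10 were read from 5 lists, and the largest, smallest and leading values named for a list are over its genes called in that comparison. Of 24 other immediate early genes 23 were tested (Egr4 had 0 counts). At 6 h of CFZ 18 were higher and 4 lower in WT cells, and 18 were higher and 2 lower in Nrf1-KO cells. At 24 h 12 were higher and 8 lower in WT and 15 were higher and 7 lower in Nrf1-KO cells, with medians of 0.65, 0.83, 0.21 and 0.45 in the same order. The shares of all genes called are those given for each comparison above. Cyr61, a secreted matrix protein, had the largest rise at 6 h in each line (log2 3.39 ± 0.055 in WT, 3.34 ± 0.057 in Nrf1-KO cells), and at 24 h in WT cells it was Maff, a small Maf protein (3.38 ± 0.09). The largest fall was that of Egr3 at 6 h in WT cells (-1.24 ± 0.39, on 43 reads in the DMSO libraries and 14 at 6 h), of Ier5l in WT cells at 24 h (-2.22 ± 0.09) and in Nrf1-KO cells at 6 h (-0.31 ± 0.068), and of Ctgf, a matrix protein related to Cyr61, in Nrf1-KO cells at 24 h (-3.16 ± 0.086). Nr4a3, an orphan nuclear receptor, had the largest fitted rise in Nrf1-KO cells at 24 h (4.13 ± 0.53) on 3 reads over the 3 DMSO libraries and 51 over the 3 libraries at 24 h. In the interaction at 6 h 10 of the 23 were higher and 4 lower, and at 24 h 11 were higher and 9 lower.

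Of 7 other dimer partners 4 were tested (Batf, Batf2 and Batf3 had 3 reads at most in any library). The 4 were higher at 6 h in both lines, against 35.6% of all genes in WT and 34.5% in Nrf1-KO cells. Atf3, a stress-induced repressor and activator that pairs with Jun proteins, rose by 4.22 ± 0.067 at 6 h and 4.09 ± 0.067 at 24 h in WT cells and by 6.11 ± 0.076 and 7.16 ± 0.07 in Nrf1-KO cells (log2). Its mean went from 7.97 to 149 and 136 CPM in WT cells and from 3.08 to 213 and 441 CPM in Nrf1-KO cells, and the interaction was 1.88 ± 0.14 and 3.07 ± 0.14. Atf2 had the smallest rise at 6 h, 0.12 ± 0.046 and 0.10 ± 0.046, which library size alone turned to -0.02 and -0.01. Jdp2, a repressor of AP-1, was lower at 24 h by -0.97 ± 0.054 in WT and -0.99 ± 0.055 in Nrf1-KO cells. Atf7 had the smallest of the called interactions, 0.26 ± 0.095 at 6 h and 0.25 ± 0.097 at 24 h, each lost under several alternatives.

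Of 16 upstream kinases and factors 15 were tested, with 6 higher and 7 lower at 6 h and 8 and 6 at 24 h in WT cells, and 3 and 6 and then 9 and 5 in Nrf1-KO cells. Of all genes 35.6% were higher and 36.2% lower at 6 h and 43.2% and 40.5% at 24 h in WT cells. In Nrf1-KO cells these shares were 34.5% and 35.0%, then 44.4% and 41.1%. The largest rise in WT cells was that of Mapk9, which encodes the JNK2 kinase of Jun, at 0.76 ± 0.039 and 1.23 ± 0.037 (log2). In Nrf1-KO cells Mapk8, which encodes JNK1, led at 6 h (0.48 ± 0.062) and Map2k7, a kinase of JNK, at 24 h (1.05 ± 0.038). Mapk9 had the lowest interaction at 24 h, -1.06 ± 0.056, and Map2k1, a kinase of ERK, the lowest at 6 h, -0.77 ± 0.059. Elk3, a repressor of serum response genes, fell most at 6 h, at -0.97 ± 0.037 in WT and -0.80 ± 0.035 in Nrf1-KO cells, and had the only interaction called higher at that time, 0.17 ± 0.051. At 24 h the largest falls were those of Mapk3 in WT cells (-0.98 ± 0.042) and Mapk14 in Nrf1-KO cells (-0.66 ± 0.041), and Mapk8 had the highest interaction, 0.54 ± 0.081. Of the list 1 gene was higher and 4 were lower in the interaction at 6 h, and 7 were higher and 4 lower at 24 h. The shares of all genes were 19.8% and 18.4% at 6 h and 29.7% and 30.0% at 24 h.

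A list of 8 genes that restrain the early response was also read, as Egr corepressors, ubiquitin ligases of Jun and mRNA decay factors. At 6 h 4 were higher and 1 lower in each line, and at 24 h 2 were higher and 4 lower in WT cells and 4 and 4 in Nrf1-KO cells. Of all genes 35.6% were higher and 36.2% lower at 6 h and 43.2% and 40.5% at 24 h in WT cells. In Nrf1-KO cells these shares were 34.5% and 35.0%, then 44.4% and 41.1%. Nab2, a corepressor of Egr1, fell most in all 4 comparisons with DMSO, at -1.07 ± 0.053 and -2.17 ± 0.061 in WT cells and -0.72 ± 0.053 and -2.43 ± 0.061 in Nrf1-KO cells (log2). Zfp36l1, which binds AU-rich elements and speeds mRNA decay, rose by 0.97 ± 0.051 at 6 h in WT cells and by 1.5 ± 0.051 and 0.89 ± 0.051 in Nrf1-KO cells at 6 h and 24 h, with an interaction of 0.53 ± 0.073 and 0.88 ± 0.075. Khsrp, another decay factor, had the largest rise of this list in WT cells at 24 h (0.56 ± 0.051). Zfp36, a relative of Zfp36l1 that was read with the other immediate early genes, rose more at 24 h, by 1.44 ± 0.069 in WT and 1.71 ± 0.067 in Nrf1-KO cells. In the interaction 2 were higher and 0 lower at 6 h, where 6 did not pass the test, and 4 were higher and 3 lower at 24 h. The shares of all genes were 19.8% and 18.4% at 6 h and 29.7% and 30.0% at 24 h.

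Of 15 textbook AP-1 target genes 12 were tested, and 7 were higher and 4 lower in 3 of the 4 comparisons with DMSO. At 24 h in Nrf1-KO cells 8 were higher and 3 lower. Of all genes 35.6% were higher and 36.2% lower at 6 h and 43.2% and 40.5% at 24 h in WT cells. In Nrf1-KO cells these shares were 34.5% and 35.0%, then 44.4% and 41.1%. The largest difference between the lines was in Mmp9, a matrix protease, with 1, 4 and 2 reads in WT DMSO libraries, 64, 61 and 62 at 6 h and 112, 198 and 230 at 24 h, and 4, 2 and 4, then 13, 8 and 7, then 14, 16 and 7 reads in Nrf1-KO libraries. Its log2 rise in WT cells was 5.02 ± 0.32 at 6 h and 6.46 ± 0.24 at 24 h, the largest of the list, and the interaction was -2.88 ± 0.77 and -4.38 ± 0.79 (edgeR adjusted p = 0.0033 and 1.8e-05). Ptgs2, the inducible prostaglandin synthase, led in Nrf1-KO cells at 6 h (3.25 ± 0.055), at a mean of 375 CPM against 39.5 CPM in DMSO. Mmp13, a collagenase, had the largest fitted rise in Nrf1-KO cells at 24 h, where its libraries held 17, 22 and 30 reads against 0, 0 and 1 in DMSO. Spp1, which encodes osteopontin, had the largest fall in all 4 comparisons, from -0.81 ± 0.047 in Nrf1-KO cells at 6 h to -2.45 ± 0.057 in WT cells at 24 h. In the interaction at 6 h 0 of the 12 were higher and 5 lower, of which Timp1, a protease inhibitor, was smallest (-0.32 ± 0.076), and at 24 h 4 were higher, led by the protease gene Plau (0.89 ± 0.14), and 4 lower. The shares of all genes were 19.8% and 18.4% at 6 h and 29.7% and 30.0% at 24 h.

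**Figure D5:**
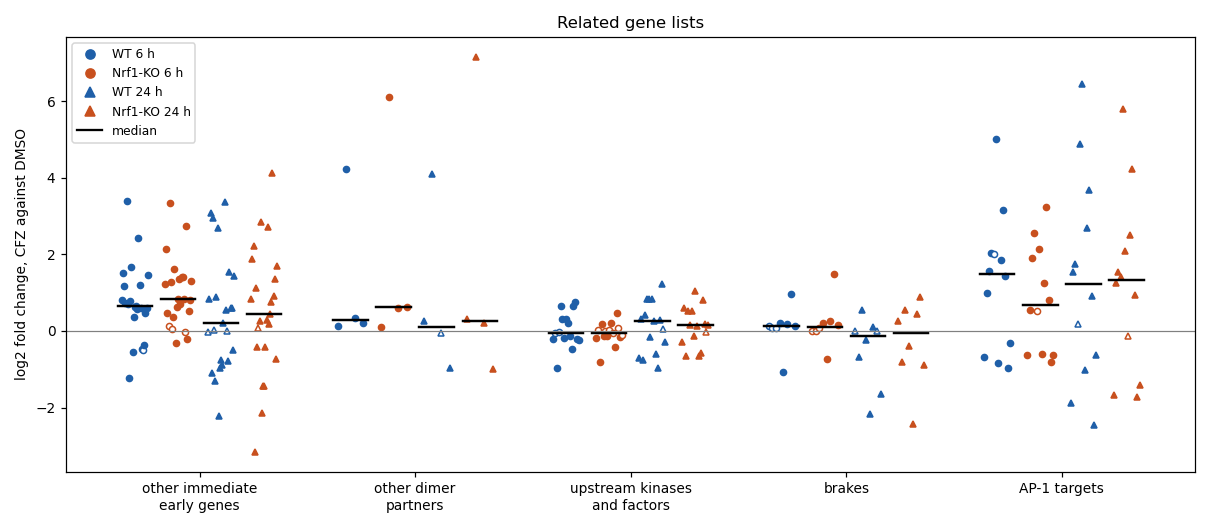
Log2 fold change of CFZ against DMSO for the tested genes of 5 related lists (each point 1 gene, open where not called, circles for 6 h and triangles for 24 h, WT blue and Nrf1-KO orange, black bars for medians). Atf3 at 7.16 in Nrf1-KO cells and Mmp9 at 6.46 in WT cells lie highest at 24 h, and genes with few reads in DMSO such as Mmp13 and Nr4a3 have imprecise values.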

How the data were processed

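RNA-sequencing of 18 NIH-3T3 libraries was analysed, in 6 groups of 3 named by the sample labels. The authors prepared libraries with a stranded mRNA kit and processed paired reads with RNA Express, which joins the STAR aligner and DESeq2, and they deposited one table of raw read counts per gene symbol. The genome build, annotation, tool versions and use of strand are not given in the sources used here. From these counts, genes were filtered by edgeR 4.0.16 (R 4.3.3) on a minimum count of 10 and a minimum total of 15, scaled by TMM and fitted in a single quasi-likelihood model of all groups, with Benjamini-Hochberg adjustment over 11762 genes. The threshold was an adjusted p of 0.05 with no minimum fold, in 11 comparisons. SE is the log2 fold change divided by the square root of F. Levels are TMM-scaled CPM, and CPM per kb uses exonic lengths of GENCODE M21 on GRCm38, matched by symbol.

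Biological variation between replicates was 3.13% (common coefficient), which lets small changes pass. No pair of replicates agreed within sampling noise (chi-square per degree of freedom 1.438 to 8.469). P-values rest on the spread between the 3 cultures of a group, pooled over the 6 groups by the single model, and not on each group's own spread. That spread was unequal, with chi-square per degree of freedom of 1.462 to 1.604 in WT cells at 24 h and 3.292 to 8.469 in Nrf1-KO cells at 24 h. The 10 members and the lists were chosen with earlier results of these data known. All members are named, and from each list the genes with the largest and smallest called change in each comparison described and any count of 5 or fewer. Zfp36 is named besides, as a relative of Zfp36l1. Alternatives were DESeq2 1.42.0, 3 other scalings, 2 other filters, a fit of the groups compared, a replicate block, leaving out 1 library at a time, and a minimum fold of 2. Of the table, 27 rows with date-like names hold no member.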

Additional observations from a re-analysis of the deposited data

Results flagged for a closer look

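Results were listed here where the response to CFZ differed between the 2 lines by the edgeR interaction test, in log2 units as the response of Nrf1-KO minus that of WT. Among the 10 genes at 6 h these were Fosl1 (-1.92), Jun (-0.38), Jund (0.37), Ier2 (0.68) and Ier3 (-0.30). At 24 h they were Fos (2.48), Fosl1 (-1.53), Fosl2 (-0.18), Jun (-0.23), Junb (0.38), Jund (0.93), Egr1 (0.65), Ier2 (1.28) and Ier3 (0.51). Fos, Jund and Ier2 were below DMSO in WT cells and above DMSO in Nrf1-KO cells at 24 h, each called on both sides.

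Among the other immediate early genes named, the interaction was 3.25 for Nr4a3 and -1.0 for Maff at 6 h, and 2.59 for Nr4a3 and -2.07 for Ctgf at 24 h. Nr4a3 rests on 0 to 19 reads per library, and its call at 24 h was lost without Nrf1-KO DMSO replicate 3 (1.80, edgeR adjusted p = 0.061). Among the dimer partners it was 1.88 for Atf3 and 0.26 for Atf7 at 6 h, and 3.07 and 0.25 at 24 h. The upstream genes gave 0.17 for Elk3 and -0.77 for Map2k1 at 6 h, and 0.54 for Mapk8 and -1.06 for Mapk9 at 24 h. The genes that restrain the response gave 0.53 for Zfp36l1 and 0.35 for Nab2 at 6 h, and 0.88 and -0.27 at 24 h, the latter lost without WT 24 h replicate 2 or Nrf1-KO 24 h replicate 3. For the AP-1 targets the values were -0.32 for Timp1 and -2.88 for Mmp9 at 6 h, and 0.89 for Plau and -4.38 for Mmp9 at 24 h.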

How the results depend on the processing

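Of 1660 alternative values for the 110 results on single members, 1602 kept their direction and side of the threshold, 10 came to be called, 12 lost their call and 36 changed sign, all of them for differences near 0 that were not called, and the cause of these changes was not tested. Fos at 6 h in WT cells (0.09) became -0.01 under upper-quartile scaling and -0.04 under library size alone, and ran from -0.05 to 0.26 with 1 library left out. Fosb at 6 h in Nrf1-KO cells (0.01) became -0.01 under RLE scaling and DESeq2, -0.07 under upper-quartile scaling, -0.11 under library size alone and -0.04 with no expression filter, and ran from -0.22 to 0.18 with 1 library left out. Fosl2 between lines in DMSO became 0.01 under RLE scaling, upper-quartile scaling, DESeq2 and no expression filter, 0.05 under library size alone, 0.00 with a mean count of at least 10 and 0.02 with the compared groups only, and ran from -0.04 to 0.05. Fos between lines at 6 h became 0.01 under RLE scaling and DESeq2, 0.05 under upper-quartile scaling, 0.06 under library size alone and 0.00 with the compared groups only, and ran from -0.17 to 0.12. Fosb with 1 library left out ran from -0.30 to 0.10 between lines at 6 h, from -0.40 to 0.00 in the interaction at 6 h and from -0.10 to 0.04 in that at 24 h. The replicate numbers did not pair the samples (mean correlation of deviations 0.0136 over 45 pairs, 9 of 18 libraries best with their own number), and the replicate block kept every count of members called, such as 8 at 6 h in WT cells, and turned Fosb at 6 h in Nrf1-KO cells and Fosl2 between lines in DMSO to 0.00.

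A minimum fold of 2 lowered the members called to 4, 5 and 5 in WT cells (6 h, 24 h, and 24 h against 6 h), to 5, 5 and 2 in Nrf1-KO cells, to 1, 0 and 3 between lines (DMSO, 6 h and 24 h) and to 1 and 3 in the interactions. Shares of all genes at this fold are given above for comparisons with DMSO only. The other counts at this fold therefore show only how the calls depend on the threshold. With 1 library left out the counts ran from 8 to 9 in the interaction at 24 h, 5 to 6 in that at 6 h, 8 to 9 between 24 h and 6 h in Nrf1-KO cells, and 7 to 8 between lines in DMSO and at 6 h, and they stayed as reported in the other 6. At 6 h in WT cells the median of all genes, -0.02, became -0.15 under library size alone and -0.13 under upper-quartile scaling, and the share of called genes that were higher went from 49.6% to 35.4% and 37.9%. Under library size alone this share was 36.4% in place of 49.7% in Nrf1-KO cells at 6 h, 41.6% in place of 52% at 24 h, 57.7% in place of 46.9% between lines in DMSO and 60.8% in place of 49.8% between lines at 6 h. For the related lists, tried after the data were seen, 467 of 480 counts stayed within 1.5 times, and of 954 values of named genes 917 kept their call and 35 lost it. The 13 counts that moved were those of the restraining genes at 6 h in WT cells (5, with 3 under upper-quartile scaling and library size alone and 8 in the compared groups only) and in the interaction at 24 h (7, with 4 without WT 24 h replicate 2), of the dimer partners at 6 h in WT cells (4, with 2 under library size alone) and in the interaction at 24 h (2, with 1 under library size alone and without WT DMSO replicate 3, WT 24 h replicate 2, Nrf1-KO DMSO replicates 1 or 2 or Nrf1-KO 24 h replicate 1), and of the other immediate early genes in the interaction at 6 h (14, with 9 and 8 without WT 6 h replicates 2 and 3). Atf2 at 6 h turned to -0.02 in WT and -0.01 in Nrf1-KO cells under library size alone. Depth limits Fos most, with 8 to 48 reads per library.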
